A study of Ciona robusta with 7 samples.

Results

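The ribosomal proteins of the cytosolic ribosome were followed in single cells of the sea squirt *Ciona robusta*. The members are the genes of the deposited table whose orthologue-style name is that of a large-subunit (RPL, RPLP) or small-subunit (RPS) ribosomal protein. The 4 genes named RPS6K, which encode kinases, were left out by this rule. It gave 67 of 15231 genes, 41 for the large subunit and 26 for the small one. A gene whose orthologue-style name is that of an RPL21 pseudogene was kept as the RPL21 gene (KH.C2.744). The names RPL4 (KH.C1.263 and KH.L18.139) and RPL8 (KH.L123.1 and KH.S1927.1) each stand for 2 genes, so these 4 members are uncertain, since counting can divide or drop reads of near-identical copies. The table gives gene model IDs without coordinates, so no positions are given.

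All cells come from 1 group: Mesp+ progeny of the trunk ventral cells (TVC), which give rise to the heart and to pharyngeal muscle, purified by fluorescence-activated cell sorting from stage 38 juveniles kept at 18 °C. No allele, drug or control treatment is named in the labels. SMART-seq2, a full-length method that captures polyadenylated RNA, was run on 7 plates (plates 2 to 8) of 96 barcodes each. Cells of 1 plate share a library, so plates are the replicates here, and nothing says whether they came from separate cultures. The p-values therefore measure how far differences between classes vary from plate to plate, which may be technical. The test also shares this spread across genes.

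The eukaryotic ribosome joins a small subunit, which reads the messenger RNA, to a large subunit, which forms the peptide bond. Most of its proteins are present once per ribosome, so cells make them in nearly equal numbers. In vertebrates their mRNAs start with a 5′ terminal oligopyrimidine tract (TOP) and are translated together under the control of growth signals. Acidic proteins on a stalk of the large subunit, RPLP1 and RPLP2 bound to RPLP0, recruit the elongation factors.

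Filtering for barcodes in which 1000 or more genes had a read left 315 cells with 3318 to 2428125 reads each and a median of 148206. Plates 2 to 8 gave 21, 28, 85, 81, 17, 70 and 13 of these cells. Cells were grouped into 7 classes without the members and without the other translation genes, so that no member defined the class it was tested in. Class 1 (77 cells) was non-muscle heart mesoderm-like, with FOXF1/2, MSX1/2/3 and the THBS3/4 gene KH.C6.164. Class 3 (50 cells) was EBF-positive precursor-like, with EBF1/2/3/4, PCNA and MCM3. Classes 5 and 7 (32 and 28 cells) were pharyngeal muscle-like, with lower and higher levels of LDB3, BVES and SLC8A1/2/3. Class 6 (31 cells) was heart muscle-like, with MYH1/2, CASQ1/2 and NKX2-3. These markers are part of each list, and some other genes of the lists had their highest level in another class. EBF1/2/3/4 stood at 824 CPM (read counts scaled to a common library total) in class 3 and also at 397 to 522 CPM in classes 2, 5 and 7. PCNA and MCM3 were also highest in class 3, while the remaining genes of the precursor marker list had their highest level outside it. SFRP5 stood at 2.10 CPM in class 3 and 753 CPM in class 4, and CDH-4 at 2.24 CPM in class 3 and 7236 CPM in class 2. HES1/4/5 stood at 562 CPM in class 3 and 991 CPM in class 1, and ISL1/2 at 115 CPM in class 3 and 169 CPM in class 6. Of the heart muscle list, the TPM1/2 gene KH.C7.260 stood at 61.2 CPM in class 6 and 945 CPM in class 1. Of the mesoderm list, FABP1/6 stood at 3.66 CPM (KH.C7.153) and 0 CPM (KH.L119.12) in class 1, and at 795 and 3.55 CPM in class 4. The THBS3/4 gene KH.C3.117 stood at 0.898 CPM in class 1 and 2.21 CPM in class 5. GATA4/5/6, on both lists, stood at 242 CPM in class 1 and 427 CPM in class 6. Of the pharyngeal muscle list, TNNT1/2/3 stood at 5211 CPM in class 5 and 7273 CPM in class 6. COL6A1/2/3/5/6 stood at 1488 CPM in class 5 and 1795 CPM in class 3. Classes 2 (53 cells) and 4 (44 cells) were left unnamed. In class 4 the summed level of 7 vesicle and cilia genes was 713 to 1524 CPM by plate and that of 7 endoderm and gut genes 46.2 to 7919 CPM, and what these cells are was not tested. In plate 7 all class 2 cells carried the cadherin CDH-4, at 16493 CPM against 11.6 to 13.5 CPM in class 2 of the other plates, so class 2 results are also given without plate 7. In plate 7 all cells of classes 1, 5 and 6 had CDH-4 reads as well, at 31.6 to 46.9 CPM. Of the barcode sequences of kept cells, 94 of 96 occurred on more than 1 plate.

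Ribosomal protein mRNAs took 42.7% of all reads in the kept cells. Summed by plate the share lay between 39.5% and 43.9%, while single cells ranged from 3.11% to 60.2% with a median of 44.2%. All 67 members had a read in 254 of the 315 cells, and no cell had fewer than 62. The share is a sum over members chosen with earlier results known, so it is described by plate and carries no p-value.

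Averaged over plates, the share was highest in class 2 and lowest in the pharyngeal muscle-like class 7. In plate 7, class 1 stood above class 2, at 46.7% against 46.1%. Class 2 reached 50.6% in plate 3, 53.6% in plate 4, 51.8% in plate 5 and 46.1% in plate 7, against 39.3%, 42.4%, 40.7% and 43.3% in the other cells of the same plates. It lay above the other cells in each of the 4 plates, by 11.1 to 11.3 percentage points in plates 3 to 5 and by 2.77 points in plate 7, and the mean difference was 11.2 points without plate 7. Class 7 held 37.8% in plate 2, 19.2% in plate 4 and 28.5% in plate 5, against 46.8%, 45.1% and 42.9% in the other cells. The difference was below 0 in every plate, with a mean of -16.4 ± 8.60 points (SD, n = 3 plates).

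Among the heart classes the share went opposite ways. Non-muscle heart mesoderm-like cells averaged 45.5% ± 0.891 against 41.9% ± 0.964 in the other cells (SD, n = 4 plates) and were above them in 4 of 4 plates. Heart muscle-like cells averaged 38.5% ± 2.02 against 43.4% ± 1.60 (SD, n = 3 plates) and were below them in 3 of 3 plates. EBF-positive precursor-like cells held 47.3%, 39.9%, 45.6% and 45.5% in plates 2 to 5, against 42.2%, 41.6%, 42.9% and 40.5% in the other cells, which put them above in 3 of 4 plates. The pharyngeal muscle-like class 5 held 44.0% in plate 4 and 41.3% in plate 7, against 43.3% and 44.5% in the other cells, so its direction differed between the plates.

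In muscle classes 6 and 7 a lower ribosomal protein share went with a higher share of contractile transcripts. Actin, myosin, tropomyosin and troponin genes took 10.6% to 19.5% of the reads of class 7 by plate, against 1.05% to 1.57% in the other cells of those plates. In class 6 they took 7.73% to 8.71%, against 2.45% to 2.93%. Class 5 did not have a lower ribosomal protein share in both its plates: its contractile share was 3.64% in plate 4 and 9.02% in plate 7, against 2.32% and 2.35% in the other cells, and its ribosomal protein share lay 0.690 points above and 3.17 points below them. A larger share of one group lowers that of all others in the same reads, and the part of this in the ribosomal protein share was not tested. Across the 28 cells of class 7 the ribosomal protein share had a Spearman correlation of 0.558 with the cell's reads and of -0.542 with the contractile share of the remaining reads, given as a description over cells that share plates and depth.

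Classes 4 and 7 also held the widest spread between cells. The share ran from 3.11% to 55.9% in class 4, where 15 of 44 cells lay under 20%, and from 6.36% to 44.7% in class 7, where 12 of 28 cells did. A single cell of class 3 and none of the remaining classes lay under 20%. In class 4 the difference from the other cells was -2.33 points in plate 4, -5.28 in plate 5 and -15.8 in plate 6, the last with 5 cells of the class. Without plate 6 the mean difference was -3.80 points, against -7.81 with it. The share in class 4 had a Spearman correlation of 0.583 with the cell's reads and of -0.540 with the share of FTMT, a gene named for a ferritin, in the remaining reads (44 cells). The correlation with the FTMT share had the opposite sign in classes 1 (0.431), 2 (0.0475), 3 (0.599) and 6 (0.296), and was -0.141 in class 5 and -0.0761 in class 7.

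**Figure D1:**
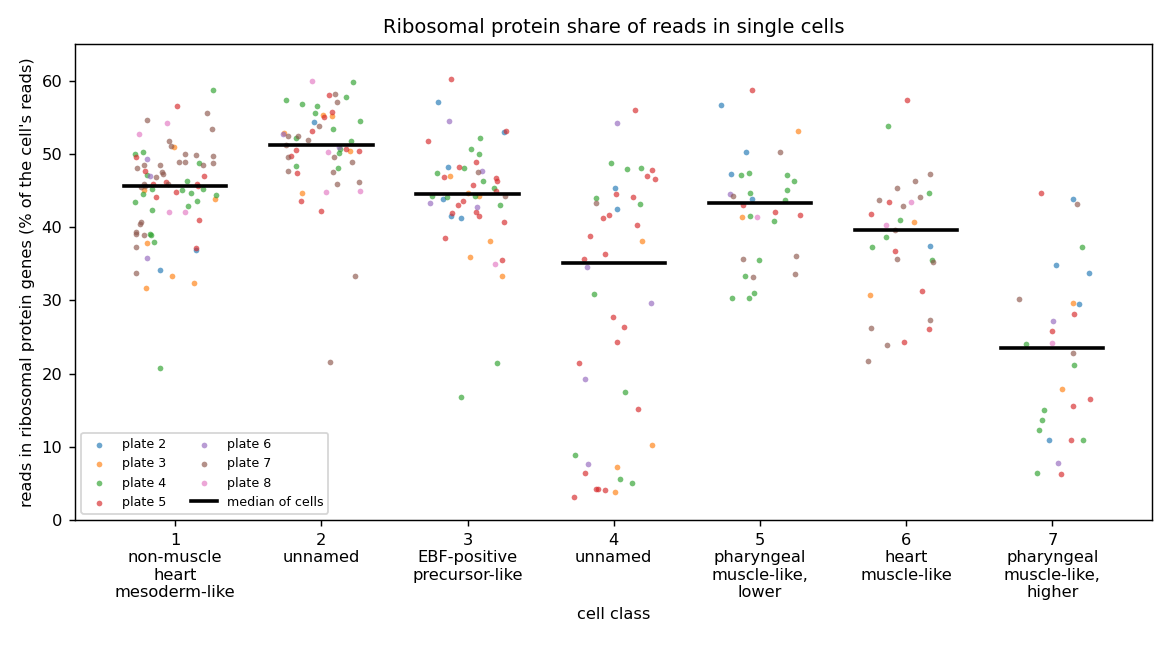
Ribosomal protein share of each of the 315 kept cells (percent of the cell's reads, y axis) by cell class (x axis), coloured by plate, with a black bar at the median of the cells of a class. Class 2 lies highest, class 7 lowest, and class 4 spreads from 3.11% to 55.9%.

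Within the ribosomal protein reads the mix of members was close to constant across classes. For each member its percentage of all ribosomal protein reads was taken per plate and class, logged and averaged over plates. The SD of this log2 level over the 7 classes had a median of 0.10 over the members, from 0.02 to 0.36, and lay under 0.2 for 60 of 67. No member's class means spanned 1 log2 unit. RPL17 of the large subunit was the steadiest (SD 0.02), between 1.19% and 1.52% of ribosomal protein reads in all 23 sums of a plate and class, followed by the small-subunit proteins RPS12 (0.04) and RPS14 (0.04). The least steady were RPS29 (0.36), the RPL4 gene KH.C1.263 (0.34) and RPLP2 (0.33). The RPL4 gene had only 3033 reads in all and was seen in 260 cells, so its levels are the least precise of the members.

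Summed, small-subunit members took 42.5% ± 0.199 of ribosomal protein reads in heart muscle-like cells and 41.8% ± 0.396 in non-muscle heart mesoderm-like cells. The other classes lay between 39.8% ± 0.313 in class 3 and 40.7% ± 0.228 in class 4 (SD over 4, 4, 3 and 3 plates for classes 1, 3, 4 and 6). The 2 heart classes did not overlap with classes 2, 3, 4 and 5 in any plate, and the highest plate of class 7 (41.3%) was below the lowest of either heart class (41.4% in class 1 and 42.3% in class 6). RPS2 and RPS29, treated below, enter these sums. RPS2 averaged 4.72% in class 6, 4.38% in class 1 and 4.56% in class 7, against 3.27% in class 2 and 3.45% in class 3. RPS29 averaged 1.65% in class 6 and 1.58% in class 1, against 1.01% in class 2 and 1.02% in class 3. A shift of the small subunit without RPS2 and RPS29 was not tested.

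The members with the most reads were RPS2 (1287531 reads), RPLP0, RPLP1, RPL18 and RPS12, and those with the fewest were the RPL4 gene KH.C1.263, RPS28 (26083 reads), the RPL8 gene KH.S1927.1, RPL22 and RPL38. These sums are not corrected for gene length, which was not used here, so they do not rank the members by number of molecules. Of the shared names, RPL4 took nearly all its reads in KH.L18.139 (792902 reads, against 3033 in KH.C1.263), and RPL8 most in KH.L123.1 (366073 reads, against 63871 in KH.S1927.1). None of these 4 genes passed a test in any comparison.

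Single members were tested with edgeR's quasi-likelihood test on reads summed by plate and class, with the plate as a block and Benjamini-Hochberg adjustment over all 10479 genes tested, with 0.05 as the limit on the adjusted p. Each class was set against the mean of the other classes, once scaled to all reads and once within the ribosomal protein reads. The second scale gives a member's departure from the ribosomal protein total, and fold changes below are on it unless stated otherwise. Class 5 had sums in only 2 plates and was given no call, and in plate 6 only class 4 had a sum, so the class 4 test rests on plates 4 and 5. All 67 members passed the filter on low counts. The shares of all genes that passed, given beside each first count, include genes that define the classes. These shares are given for the main fits only, so counts of members under other settings stand without a background.

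The small-subunit protein RPS29, a short zinc-binding protein of the subunit's head, set the 2 heart classes apart from the rest. It made up 1.48%, 1.51% and 1.96% of ribosomal protein reads in heart muscle-like cells of plates 4, 5 and 7, and 1.70%, 1.45%, 1.5% and 1.67% in non-muscle heart mesoderm-like cells of plates 3, 4, 5 and 7. In class 2 it took 0.868% to 1.11%, in class 3 0.947% to 1.10%, in class 5 0.936% and 1.07%, and in class 7 0.762% to 0.989%. In class 4 it took 1.02% in plate 4, 1.0% in plate 5 and 1.76% in plate 6.

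Every plate of both heart classes thus lay above every plate of the other classes, with the exception of class 4 in plate 6. Plate 6 as a whole had the highest RPS29 level of the 7 plates, at 1.56% of ribosomal protein reads, against 1.0% to 1.38% in the others. RPS29 rose in heart muscle-like cells (log2 fold change 0.65 ± 0.12 SE, adjusted p = 2.46e-05, higher in 3 of 3 plates) and in non-muscle heart mesoderm-like cells (0.55 ± 0.11, adjusted p = 0.000114, higher in 4 of 4 plates). It fell in the pharyngeal muscle-like class 7 (-0.49 ± 0.14, adjusted p = 0.0171, lower in 3 of 3 plates). The class 7 call was lost in 6 of 13 alternative settings, among them DESeq2 and leaving out plate 4 or plate 5.

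RPS2, a small-subunit protein at the entry of the messenger RNA channel, took a larger part in muscle classes 6 and 7, but not in these alone. Its mean was 4.72% in class 6, 4.56% in class 7 and 4.38% in the non-muscle class 1, against 3.27% in the pharyngeal muscle-like class 5. It made up 4.6%, 4.68% and 4.89% of ribosomal protein reads in heart muscle-like cells (plates 4, 5 and 7) and 3.58%, 5.74% and 4.35% in class 7 (plates 2, 4 and 5). In the precursor-like class 3 it made up 3.0%, 4.15%, 3.34% and 3.30% (plates 2 to 5), and in class 2 2.92%, 3.46%, 3.50% and 3.19% (plates 3, 4, 5 and 7). Heart muscle-like cells lay above all plates of classes 2, 3, 4 and 5, while class 7 overlapped with them in plate 2.

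RPS2 rose in class 6 (0.36 ± 0.08, adjusted p = 0.00064, 3 of 3 plates) and in class 7 (0.37 ± 0.08, adjusted p = 0.000945, 3 of 3 plates), and neither call held with DESeq2. It fell in class 2 (-0.31 ± 0.07, adjusted p = 0.00684, lower in 4 of 4 plates), the only member called there within ribosomal protein reads. This call was lost in 4 of 11 alternative settings, among them DESeq2 and leaving out plate 3, and was kept without plate 7. The class 7 rise, lost in 5 of 13 alternative settings, rests on plate 4: without that plate the log2 fold change was 0.19 and did not pass. Non-muscle heart mesoderm-like cells had 5.56%, 4.13%, 4.19% and 3.66% (plates 3, 4, 5 and 7), which did not pass.

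The large-subunit protein RPL39, a short protein that lines the exit tunnel of the nascent chain, was higher in non-muscle heart mesoderm-like cells. It made up 1.25%, 1.12%, 0.948% and 1.11% of ribosomal protein reads there (plates 3, 4, 5 and 7). In classes 2, 3, 4, 5 and 7 of the same plates it made up 0.648% to 0.855%. Sums of these classes in plates 2 and 6, which had no class 1 sum, lay lower, at 0.463% to 0.529%. Heart muscle-like cells stood between them and partly within the class 1 range, at 1.04%, 0.874% and 0.949% (plates 4, 5 and 7). The rise in class 1 was 0.48 ± 0.13 (adjusted p = 0.0108, 4 of 4 plates), and it did not pass without plate 3, 4, 5 or 7. It also did not pass in cells with at least 2000 genes or with all genes used for clustering. In class 6 the log2 fold change of 0.26 ± 0.15 did not pass.

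On the stalk of the large subunit, RPLP2 was low in both heart classes. It took 0.993%, 0.979% and 1.31% of ribosomal protein reads in heart muscle-like cells (plates 4, 5 and 7) and 1.24%, 1.38%, 1.40% and 1.22% in non-muscle heart mesoderm-like cells (plates 3, 4, 5 and 7). In the other classes it took 1.38% to 2.51%, with class 7 of plate 4 as the lowest. Class 6 therefore did not overlap with classes 2, 3, 4, 5 and 7. RPLP2 fell by 0.60 ± 0.12 in class 6 (log2, adjusted p = 0.000103, lower in 3 of 3 plates) and by 0.36 ± 0.10 in class 1 (adjusted p = 0.016, lower in 4 of 4 plates). In cells with at least 2000 genes the class 6 log2 fold change was -0.30 and did not pass. The class 1 call was lost in 7 of 13 alternative settings. These were leaving out plate 3 or plate 7, DESeq2, no plate block, cells with at least 2000 genes and both other clusterings.

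Of its partners on the stalk, RPLP0 was also low in class 1. RPLP0, which anchors the stalk to the subunit, took 3.32%, 2.93%, 2.81% and 2.41% in non-muscle heart mesoderm-like cells (plates 3, 4, 5 and 7), against 3.0% to 5.56% in the other classes, and fell there by 0.33 ± 0.08 (log2, adjusted p = 0.00205, lower in 4 of 4 plates). The ranges overlap through plate 3, and the call was lost without plate 7 (-0.25). It was also lost with DESeq2, in cells with at least 2000 genes and against the summed other cells. RPLP0 rose in class 7 (0.37 ± 0.09, adjusted p = 0.00177, 3 of 3 plates), where plate 4 stood at 5.56% and plates 2 and 5 at 3.38% and 3.78%. Without plate 4 that log2 fold change was 0.03 and did not pass. The class 7 call was lost in 4 of 13 alternative settings, DESeq2 among them. RPLP1, which forms dimers with RPLP2, took 3.52%, 2.57% and 4.28% in class 6 (plates 4, 5 and 7), against 2.37% to 3.86% in the other classes, which it overlapped. It passed in no class within ribosomal protein reads.

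**Figure D2:**
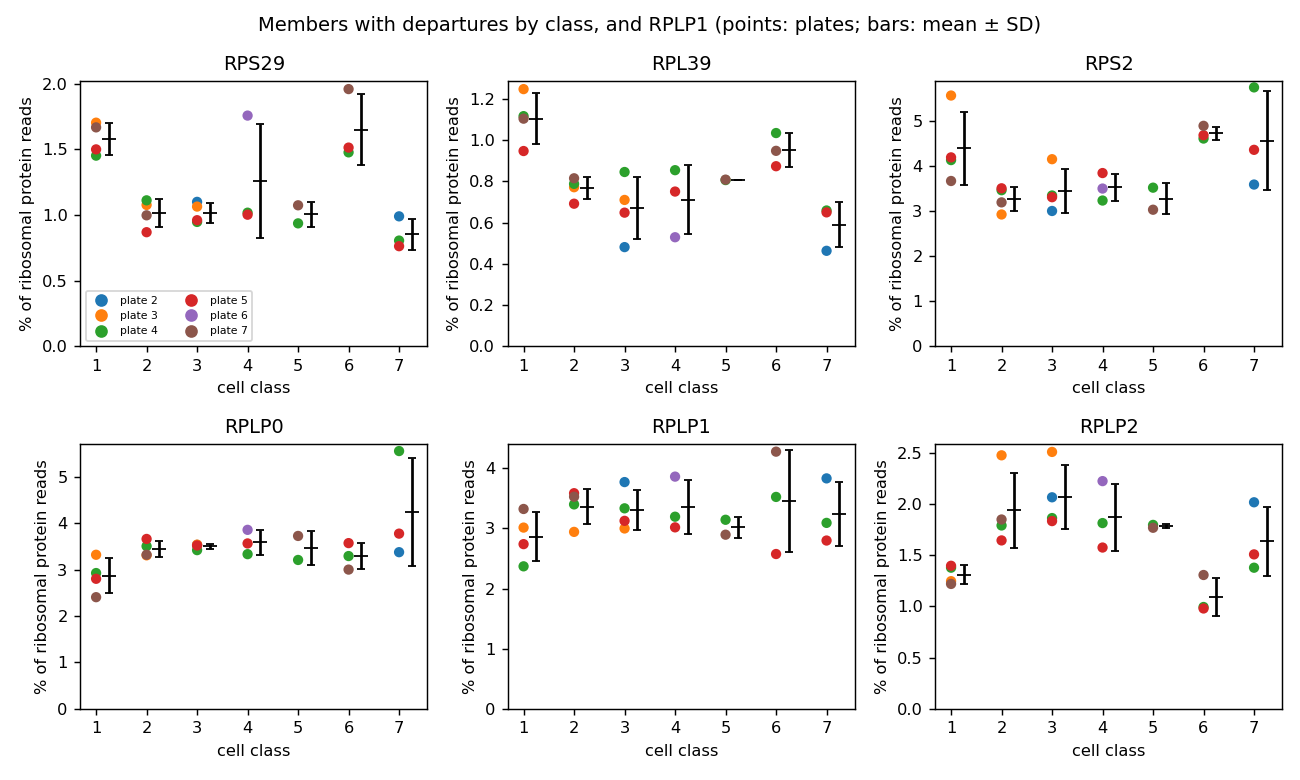
Percent of ribosomal protein reads (y axes, from 0) of RPS29, RPL39, RPS2 and the stalk proteins RPLP0, RPLP1 and RPLP2 by cell class (x axes). Points are plates with at least 5 cells of the class and bars the mean ± SD. RPS29 stands high and RPLP2 low in classes 1 and 6, and RPLP0 and RPS2 of class 7 stand out in plate 4.

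In numbers of members, departures within ribosomal protein reads were few in each class. In class 1, 2 members rose and 2 fell, in class 6, 2 rose and 1 fell, in class 7, 2 rose and 1 fell, and in class 2, 1 fell. Of all genes tested on this scale, 4.8% passed in either direction in class 1, 6.14% in class 6, 5.11% in class 7 and 1.49% in class 2, beside which the members' counts of 4, 3, 3 and 1 of 67 are near the background. No member passed in class 3 (1.36% of all genes) or class 4 (7.54%), where 2 and 0 members had an unadjusted p under 0.05, and DESeq2's Wald test also passed none there. RPLP2 had the largest positive change in class 3 (0.33 ± 0.10) and did not pass. Fold changes of all members lay within 0.5 log2 units of 0 in classes 2, 3, 4 and 5.

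**Figure D3:**
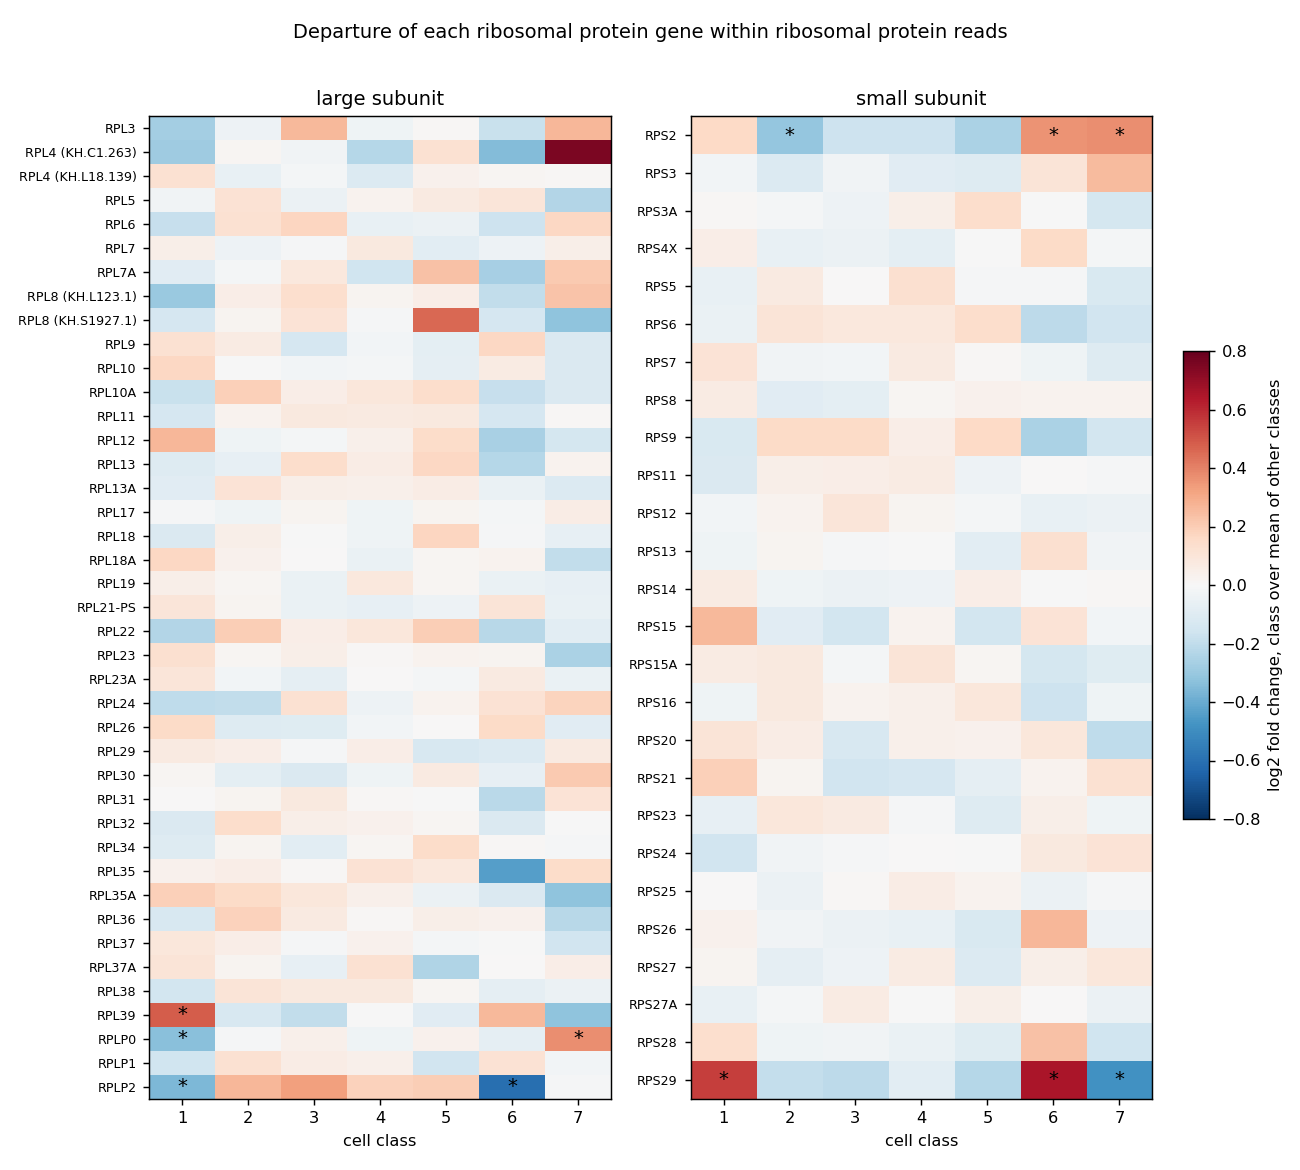
Log2 fold change of each of the 67 members within ribosomal protein reads, class over the mean of the other classes (colour), for the large subunit with the stalk proteins (left) and the small subunit (right), by cell class (x axes). Asterisks mark the 11 calls at an adjusted p under 0.05, which fall on RPS29, RPS2, RPL39, RPLP0 and RPLP2. The strong colour of the RPL4 gene KH.C1.263 in class 7 is not a call.

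In all, 3 pairs of classes were set against each other in the same fit. Heart muscle-like against pharyngeal muscle-like cells (class 6 against class 7) gave the largest difference, RPS29 at 0.98 ± 0.17 (adjusted p = 2.52e-05, higher in both shared plates), with 1.48% and 1.51% in class 6 and 0.804% and 0.762% in class 7 of plates 4 and 5. RPLP0 fell by 0.38 ± 0.11 (log2, adjusted p = 0.0377) and RPLP2 by 0.51 ± 0.16 (adjusted p = 0.047) in class 6 relative to class 7, each lower in both shared plates. These 3 members compare with 3.75% of all genes. The RPLP0 difference was -0.05 without plate 4 and -0.35 without plate 7, and passed in neither case. RPLP2 did not pass without plate 2, 3, 4 or 5. The RPLP0 call was lost in 6 of 12 alternative settings and the RPLP2 call in 8 of 12, DESeq2 among them for both.

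Pharyngeal muscle-like cells of class 7 against the precursor-like class 3 differed within ribosomal protein reads in RPS2 (0.46 ± 0.10, adjusted p = 0.00073, higher in 3 of 3 plates), beside 2.76% of all genes. This call too was lost without plate 4, and also with DESeq2, without the plate block and in cells with at least 2000 genes. No member passed between heart muscle-like and non-muscle heart mesoderm-like cells (class 6 against class 1, 1.57% of all genes), where 4 members had an unadjusted p under 0.05 and all 67 fold changes lay within 0.5 log2 units of 0. DESeq2 also passed none. RPS29, RPS2, RPL39 and RPLP2 were therefore not told apart between these 2 classes at this number of plates.

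Scaled to all reads, members moved largely together, and how many passed depended on the scaling. In class 2, 23 of 67 members rose and none fell, against 0.821% of all genes that rose and 1.48% that passed in either direction. All 67 fold changes were above 0, with a median of 0.60 for the members and 0.01 for all genes. RPLP2 led with 0.85 ± 0.17 (adjusted p = 0.000611), from 12510, 9585, 8508 and 8505 CPM in class 2 of plates 3, 4, 5 and 7. The other stalk proteins RPLP1 (0.70 ± 0.14) and RPLP0 (0.58 ± 0.14) rose as well, as did RPL10A of the L1 stalk (0.77 ± 0.19) and RPS6 (0.69 ± 0.17), the small-subunit target of S6 kinases. Without plate 7, 17 members rose. The count was 2 without plate 3, 2 without plate 5, 3 with DESeq2 and 1 without the plate block.

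In class 7, where the share of reads was lowest, 1 member passed with trimmed mean of M-values (TMM) scaling: RPS29 fell (-0.85 ± 0.25, adjusted p = 0.0311), beside 3.89% of all genes in either direction. With library totals in place of TMM, 56 of the 67 fell, a count without the share of all genes beside it. The median over the members was -0.81 in place of -0.38. The median over all genes shifted likewise, to -0.80 in place of -0.45. The members' median thus stayed close to that of all genes in class 7 under both scalings, but not in every other setting. In cells with at least 2000 genes it was 0.06, against -0.98 for all genes. Against the summed other cells it was -0.23, against -0.77, and with all genes used for clustering -0.62, against -1.14. The RPS29 call was lost in 9 of 16 alternative settings, among them leaving out plate 3, 4, 5, 6 or 7.

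In class 1, RPS29 (0.72 ± 0.19, adjusted p = 0.00525) and RPL39 (0.65 ± 0.21, adjusted p = 0.0422) rose on the scale of all reads, beside 4.38% of all genes that rose and 5.45% that passed in either direction. The RPS29 call was lost without plate 3 or 7. The RPL39 call was lost in 9 of 16 alternative settings, among them leaving out plate 3, 4, 5, 6 or 7. With library totals 9 members rose, RPS2 and RPS15 among them. In class 6, RPLP2 fell (-0.83 ± 0.21, adjusted p = 0.00447, 3 of 3 plates), beside 6.62% of all genes in either direction. Its level was 3998, 3819 and 4739 CPM there (plates 4, 5 and 7), against 8505 to 12510 CPM in class 2, 8338 to 9995 CPM in class 3 and 2647 to 7622 CPM in class 7. The call was lost in 4 of 16 alternative settings, among them DESeq2 and leaving out plate 5. With library totals RPS29 and RPS2 also passed as higher in class 6, and with relative log expression (RLE) size factors 2 members passed as higher and none as lower. The median of the members in class 6 was -0.24 with TMM and 0.04 with RLE, so no common direction is given.

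No member passed on this scale in class 3 (1.48% of all genes) or class 4 (6.41%), where 8 and 1 members had an unadjusted p under 0.05 and DESeq2 passed none. The median over the members of class 3 was -0.28 with TMM and 0.06 with library totals, against 0.20 and 0.50 for all genes. When all genes were used for clustering, 29 members passed as higher in the matching class and the median was 0.62, so no direction is given for class 3. Between class 6 and class 7 RPS29 passed alone (1.09 ± 0.31, adjusted p = 0.022, beside 3.68% of all genes), and 26 members passed as higher with library totals. The RPS29 call on this scale was lost in 10 of 15 alternative settings, among them leaving out plate 3, 4, 5, 6 or 7. Between class 7 and class 3 none passed with TMM (2.58% of all genes, 0 members at an unadjusted p under 0.05, none with DESeq2), and 50 passed as lower with library totals. Between class 6 and class 1 none passed (2.34% of all genes, 8 members at an unadjusted p under 0.05, none with DESeq2).

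**Figure D4:**
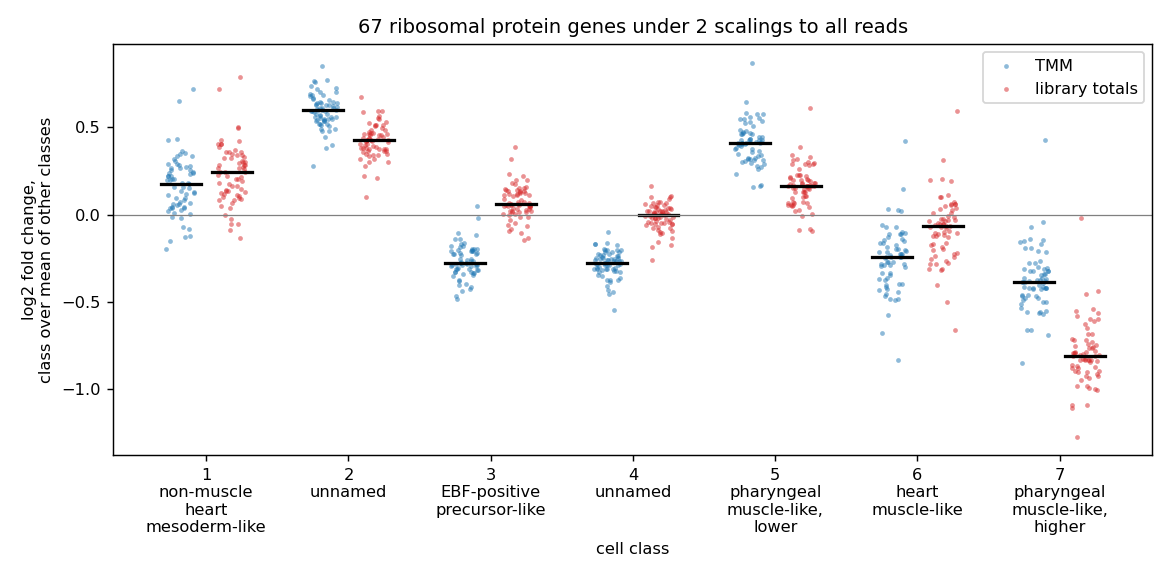
Log2 fold change of the 67 members scaled to all reads, class over the mean of the other classes (y axis), by cell class (x axis), with TMM in blue and library totals in red. Points are members and black bars their medians. The median of class 2 lies above 0 under both scalings and that of class 7 below, while that of class 3 changes sign.

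Genes that work with the ribosome were followed as lists, each chosen by name with earlier results of these data known. RPSA, a small-subunit protein outside the name rule, rose in class 2 scaled to all reads (0.63 ± 0.17, adjusted p = 0.0278, against a member median of 0.60). Of 54 translation factors tested, none rose in classes 1, 2, 3, 4, 6 or 7 scaled to all reads, and 2 fell in each of classes 1, 6 and 7. Of all genes, 5.45%, 6.62% and 3.89% passed in either direction in these 3 classes, so the counts do not stand above the background. In class 1 these were EIF5A/2, which helps the ribosome past stalling stretches (-0.95 ± 0.29), and EEF1G, a subunit of the elongation factor complex (-1.47 ± 0.45). In class 6 they were the initiation factor subunits EIF3K and EIF3M, at 1.53 to 27.4 CPM and 1.53 to 32.8 CPM by plate. In class 7 they were EIF2AK4, a kinase that represses initiation, and EIF4EBP1 (KH.C1.29), a repressor of the cap-binding factor, at 0.839 to 9.79 CPM and 4.19 to 43.0 CPM.

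Ribosomal proteins of the mitochondrion are encoded by a separate set of nuclear genes. Of 57 tested, 6 fell in heart muscle-like cells scaled to all reads, beside 6.62% of all genes in either direction, and none passed in classes 1, 2, 3, 4 and 7. The list's median in heart muscle-like cells was -1.29, against -0.75 for all genes and -0.24 for the cytosolic members. MRPS10 had the smallest adjusted p of the list (8.52e-05) and stood at 0 to 3.62 CPM in class 6 by plate, against 22.4 to 138 CPM in class 7. Its 79 reads in class 6 include those of cells on plates with too few cells of the class for a sum. MRPS30 stood at 0.443 to 7.64 CPM in class 6, against 19.0 to 29.9 CPM in class 7, and MRPS2 and MRPL28 had 1 read each in class 6. In class 3 their median was 0.80 and in class 2 0.79, against 0.20 and 0.01 for all genes, and no gene of the list passed in either.

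Of 20 other genes known in vertebrates to carry the TOP tract, 4 fell in class 6 scaled to all reads, beside 6.62% of all genes in either direction, and 16 did not pass. Those that fell were BTF3 (-2.26 ± 0.40, adjusted p = 4.6e-06) and NACA/2 (-2.18 ± 0.42, adjusted p = 4.43e-05), the partners of the nascent polypeptide-associated complex at the tunnel exit, the histone chaperone NAP1L1/4 (-3.87 ± 0.79) and the RNA-binding protein HNRNPA1/3, with 4 reads in class 6. BTF3 stood at 166 to 339 CPM in class 6, against 856 to 1928 CPM in classes 2, 3, 4 and 5. In class 1 it stood at 334 to 658 CPM, which overlaps with class 6, and in class 7 at 481 to 1452 CPM. The list's median in class 6 was -1.0, against -0.75 for all genes, and its difference from the members was not tested. In class 2, BTF3 rose (1.23 ± 0.28, adjusted p = 0.00449) together with 23 members. Apart from this list, the translation factor EIF4EBP1/2/3 (KH.L40.4) rose in class 7 within ribosomal protein reads (1.88 ± 0.38, adjusted p = 0.000158), beside 5.11% of all genes in either direction. These reads took their lowest share in class 7, and scaled to all reads no translation factor rose there. The gene stood at 284 to 1038 CPM in class 7, 383 to 731 CPM in class 5 and 433 to 671 CPM in class 4.

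The mix of members also differed between plates. Summed over all cells of a plate, so that the mix of classes enters, plates 2 and 6 stood farthest from the rest, with 26 and 27 members more than 0.2 log2 units away from the mean of the other plates, against 10 to 19 in plates 3, 4, 5, 7 and 8. RPS28 of the small subunit took 0.0292% and 0.0248% of ribosomal protein reads in plates 2 and 6, 0.0481% in plate 8 and 0.0626% to 0.0937% in plates 3, 4, 5 and 7. RPL39 took 0.496%, 0.472% and 0.514% in plates 2, 6 and 8, against 0.724% to 0.974% in the others. RPS6 ran the other way, at 2.11% and 1.85% in plates 2 and 6, against 1.44% to 1.58% in the others. Within a class the same members stood apart: in class 3 RPS28 took 0.0298% and RPL39 0.481% in plate 2, against 0.0760% to 0.0890% and 0.648% to 0.846% in plates 3 to 5. In class 4 they took 0.0291% and 0.529% in plate 6, against 0.0837% to 0.0913% and 0.751% to 0.855% in plates 4 and 5. The class comparisons carry the plate as a block. The labels give no batch other than the plate.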

How the data were processed

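SMART-seq2 reads of polyadenylated RNA were measured in 672 barcodes on 7 plates. The deposited values are counts, 1 whole number per gene and barcode, not normalized. Per the file headers, the authors demultiplexed barcodes by plate and aligned read 2 with TopHat, and per the submitters' processing notes featureCounts made the counts on KH2013 gene models. Versions, strand setting and the treatment of multiply mapped reads are not given in the sources used here. There are no molecular identifiers, so reads are not independent molecules.

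The members and lists were chosen with earlier results of these data known. A total of 5 reporter sequences were left out. Barcodes with at least 1000 genes were kept, 315 cells with 98.2% of the reads, whereas the study's design text gives 386 cells. Cells were clustered with scanpy 1.11.5 (Leiden resolution 0.8, 2000 variable genes, 20 principal components, 15 neighbours) without 192 translation genes, and no doublet caller was run. Counts were summed per plate and class with at least 5 cells, giving 23 sums, and tested with edgeR 4.0.16 (quasi-likelihood, filterByExpr, plate as a block, class minus mean of the other classes, classes in at least 3 plates, Benjamini-Hochberg over 10479 genes). Library sizes were TMM-scaled totals or, within ribosomal protein reads, the summed member reads. The spread was mostly shared across genes: prior degrees of freedom were 126 on all reads and 69.1 within ribosomal protein reads, against 11 residual. The test was run first on simulated data. Alternatives included DESeq2 1.42.0, other scalings, cell filters and clusterings, no plate block and leaving out each plate. The pairing by plate comes from the labels: sums of 1 plate share a library. Named genes were the members called with 1 sign in every plate, those with the most and fewest reads, those steadiest and least steady over classes, the stalk proteins, and called genes of the translation lists.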

Additional observations from a re-analysis of the deposited data

Results flagged for a closer look

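Of 85 sets of plate values tested for a plate far from the others, 4 stood out, about as many as chance gives, at 1 in 20. The ribosomal protein share of class 2 minus the other cells was 2.77 percentage points in plate 7, far below the other 3 plates. In class 3, RPL35A stood apart in plate 2 at 1.47% of ribosomal protein reads, RPS6 in plate 2 at 2.18%, and RPLP0 in plate 4 at 3.42%. Outside the kept cells, the 357 barcodes with under 1000 genes held 1520988 reads, and ribosomal protein genes took 42.0% of them, against 42.7% in the kept cells.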

How the results depend on the processing

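Of the share differences, those of classes 2, 4 and 7 kept their direction under the alternatives that gave a value, at 7.75 to 11.2 points in class 2, -10.9 to -3.33 in class 4 (the smallest in cells with at least 2000 genes) and -24.5 to -11.7 in class 7 (the largest with all genes in the clustering). Class 1 was 1.29 points with the median over cells and 1.71 at resolution 0.5. Class 3 was 6.23 at resolution 0.5 and 7.72 with all genes in the clustering, and class 6 was -8.94 with all genes and -9.93 in cells with at least 2000 genes. Class 5 was -6.38 with the median over cells and reversed to 0.465 (at least 2000 genes), 0.723 (without the 20 most abundant other genes), 4.79 (resolution 0.5), 4.6 (at least 500 genes) and 0.690 (without plate 7). Leaving out 1 plate gave 3.28 to 4.09 in class 1, 8.35 to 11.2 in class 2, 2.01 to 4.28 in class 3, -10.5 to -3.80 in class 4, -3.17 to 0.690 in class 5, -5.95 to -3.0 in class 6 and -20.2 to -11.7 in class 7. Counts of members called on all reads moved as follows, given without the share of all genes under each setting. With library totals they were 9 in class 1, 3 in class 6, 56 in class 7, 26 in class 6 against 7 and 50 in class 7 against 3. RLE gave 7 in class 2 and 2 in class 6, and TMM without ribosomal protein genes 1 in class 1. DESeq2 gave 3 in class 2 and 2 in class 7. Without the filter there were 1 in class 1, 36 in class 2, 4 in class 6 and 0 in class 6 against 7. Without the replicate block there were 1 in class 2, 1 in class 4, 0 in class 7 and 0 in class 6 against 7. Cells with at least 2000 genes gave 1 in class 4, 0 in class 7, 0 in class 6 against 7 and 1 in class 6 against 1. Clustering with all genes gave 29 in class 3 (all higher, member median 0.62), 5 in class 6, 2 in class 7, 0 in class 6 against 7, 20 in class 7 against 3 and 2 in class 6 against 1. Resolution 0.5 gave 1 in classes 1, 3 and 4 and 0 in class 7 and in class 6 against 7. Against the summed other cells there were 12 in class 2 and 0 in class 7. Leaving out 1 plate gave 0 to 2 in class 1, 2 to 31 in class 2, 0 to 1 in classes 3 and 7, 0 to 3 in class 6, and 0 to 1 in class 6 against 7 and in class 7 against 3. Within ribosomal protein reads, DESeq2 gave 2 in class 1, 0 in classes 2 and 7, 1 in class 6 against 7 and 0 in class 7 against 3. Without the replicate block there were 0 in class 2, 1 in class 6 against 7 and 0 in class 7 against 3. Cells with at least 2000 genes gave 2 in class 1, 0 in class 7, 1 in class 6 against 7, 0 in class 7 against 3 and 2 in class 6 against 1. Clustering with all genes gave 2 in class 1, 2 in class 3 and 3 in class 7 against 3, and resolution 0.5 gave 3 in class 3 and 5 in class 6. Against the summed other cells there were 0 in classes 2 and 7. Leaving out 1 plate gave 1 to 4 in class 1, 0 to 1 in class 2, 3 to 3 in class 6, 0 to 3 in class 7, 1 to 3 in class 6 against 7 and 0 to 2 in class 7 against 3. The cause of these moves was not tested. RPS29 within ribosomal protein reads kept its call under all alternatives run in classes 1 and 6 and between classes 6 and 7, and no named member reversed. Some alternatives left a class with sums in fewer than 3 plates, such as class 6 without plate 4 or 5. Counts and calls of these fits are included here, although the main test gave no call to a class in 2 plates. In class 6, RPS2 did not pass with DESeq2 and RPLP2 did not in cells with at least 2000 genes. Class 2 had no counterpart when all genes were clustered or at resolution 0.5, and class 5 was given no counts.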

Other observations

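Outside the members, 108 genes stood above 500 CPM, and 17 of them, with 8.25% of all reads, had a median Spearman correlation above 0.5 with the ribosomal protein share over the cells of each class. This is a description over cells that share plates and depth. Among those with a name were the small-subunit protein RPSA (0.733), the ribosome-bound scaffold GNB2L1 (0.696) and the elongation factors EEF1A1/2 (0.612), EEF1B2 (0.583) and EEF2 (0.564). COX16, named for a protein of cytochrome oxidase assembly, stood at 0.718. The remaining 9 genes had no name in the table, with KH.C10.101 (0.843) and KH.C9.469 (0.823) among them.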
